A study of Mus musculus with 16 samples.

Results

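Neurons let calcium in with each burst of activity and must then remove it. Plasma membrane calcium ATPases (PMCA), encoded by Atp2b1, Atp2b2, Atp2b3 and Atp2b4, export it across the cell surface with high affinity and are activated by calmodulin, and the sarco/endoplasmic reticulum ATPase SERCA2, encoded by Atp2a2, returns it to internal stores. PMCA transcripts are long and are alternatively spliced at 2 sites, called A and C.

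These 5 pump genes were taken by gene name from long-read counts that held at least 1 read of 23724 genes. They were selected by inspection of R6/2 against NT values in these same samples, so their differences between groups are given as descriptions without p-values, and the calls of the fits over all genes are listed once, beside the share of all genes called. The study read full-length cDNA (PacBio Iso-seq) from cortex and from striatum, taken from male mice aged 3 months, with 4 samples in each of 4 groups and 16 in all. R6/2 mice are transgenic for the first exon of human mutant HTT, the gene expanded in Huntington's disease, on a mixed B6CBA background, and NT mice are non-transgenic. The labels number the samples but do not say whether each is a separate animal. Total reads were between 252885 and 808814 in cortical samples and between 317050 and 1496196 in striatal samples. For 4 striatal samples (NT 1, NT 2, R6/2 2 and R6/2 3) there were 2 sets of counts, which were summed, and these samples are treated as a batch below. Mitochondrial transcripts made up 0.408% to 0.851% of gene reads in these 4 samples and 1.41% to 3.27% in the other 4 striatal samples. The mean isoform length of their reads was 2141 to 2225 nt and 1618 to 1885 nt, and 1851 to 2100 nt in cortical samples. All cortical samples had 1 set of counts. Region and library preparation cannot be told apart in any comparison of striatum with cortex below, isoform shares included.

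The tissue labels were checked on marker genes. The summed level of 9 markers of striatal projection neurons, in counts scaled to the normalised library (CPM), was 1970 to 14453 in striatal samples and 99.8 to 490.2 in cortical samples. It was lower in every R6/2 sample than in every NT sample, at 1970 to 3418 against 10539 to 14453 CPM in the striatum and 99.8 to 136 against 392 to 490.2 CPM in the cortex. The 5 astrocyte markers summed to 1238 to 1712 CPM in R6/2 against 2112 to 3468 CPM in NT cortex, and to 1185 to 1655 CPM against 1840 to 3728 CPM in the striatum. Taken singly, 2 of 9 projection neuron and 3 of 5 astrocyte markers were lower in every R6/2 than in every NT sample in the cortex, and 5 of 9 and 1 of 5 in the striatum. None of these 14 genes was at 0 in any group. Summed oligodendrocyte, microglial and choroid plexus markers overlapped between genotypes, and 6 cortical excitatory markers summed to 0 to 46.1 CPM in the striatum. Singly, 1 of 5 oligodendrocyte markers had all cortical R6/2 samples below all NT samples, and 2 of 5 had this among striatal samples. No microglial, choroid plexus or cortical excitatory marker did so. This pattern was found for 6.54% of all genes tested in cortical samples and for 4.29% of those tested in striatal ones. In bulk tissue, fewer cells of a type and less RNA per cell cannot be told apart, and the part of these cell types in the differences of the pump genes was not tested.

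Sequences of Atp2b2 (ENSMUSG00000030302, chr6:113743831-114042613, minus strand, mm10, GENCODE M21) are shown first, because the most abundant annotated Atp2b2 isoform differs from the coding one there. Capitals mark the last 30 bases of exon 6, chr6:113805461-113805490. In Atp2b2-204 (ENSMUST00000135199, 6 exons, annotated as a retained intron) the next 60 bases are intron and open with the gt of the 5′ splice site, which gives chr6:113805401-113805490 as a whole. In Atp2b2-201 (ENSMUST00000089003, 20 exons, protein coding) the next 60 bases are the start of exon 7, chr6:113796338-113796397.
Atp2b2-204: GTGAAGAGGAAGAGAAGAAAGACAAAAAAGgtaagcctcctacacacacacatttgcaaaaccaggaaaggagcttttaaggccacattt
Atp2b2-201: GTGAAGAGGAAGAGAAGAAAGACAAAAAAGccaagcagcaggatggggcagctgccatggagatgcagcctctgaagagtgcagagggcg
Atp2b2-204 runs on for 2123 bases of an intron of 9063 bases. That intron holds the 3 annotated site A exons, of 42, 60 and 33 bases.

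The 2 coding isoforms with reads start at different promoters, so the 250 bases before each start are shown from RefSeq (GRCm38.p6), with the GC box GGGCGG in capitals on either strand. Atp2b2-203 (ENSMUST00000101045, 22 exons) belongs to the distal start and Atp2b2-201 to the proximal start.
Distal, chr6:114042081-114042330, minus strand: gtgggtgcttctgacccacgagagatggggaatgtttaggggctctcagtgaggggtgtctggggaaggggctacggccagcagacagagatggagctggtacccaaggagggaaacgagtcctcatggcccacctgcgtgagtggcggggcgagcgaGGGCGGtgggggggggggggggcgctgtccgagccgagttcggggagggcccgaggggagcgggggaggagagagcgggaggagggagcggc
Proximal, chr6:113891540-113891789, minus strand: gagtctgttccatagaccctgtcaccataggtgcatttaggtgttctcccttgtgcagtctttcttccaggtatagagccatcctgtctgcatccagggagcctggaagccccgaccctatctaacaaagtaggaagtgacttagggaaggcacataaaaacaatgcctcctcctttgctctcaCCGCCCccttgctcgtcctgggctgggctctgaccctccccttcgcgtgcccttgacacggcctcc
The distal stretch is 69.6% G and C with 16 CpG, and the proximal one 55.6% with 6. Each holds 1 GC box, a match found in 32.7% of 32851 promoter stretches of the same length.

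Atp2b1 (ENSMUSG00000019943, chr10:98914406-99026143, plus strand) encodes PMCA1, the widely expressed member of the family. Its level in the NT cortex was 919, 1292, 1359 and 1107 CPM in samples 1 to 4, a mean of 1169 ± 198 (SD, n = 4). In the R6/2 cortex it was 898, 894, 907 and 826 CPM, a mean of 881 ± 37.1 (SD, n = 4), so that every R6/2 sample lay below every NT sample, though the highest R6/2 and the lowest NT sample were close. The log2 fold change, R6/2 against NT, was -0.39 ± 0.19 (SE). In the striatum the gap was wider. NT samples held 1004, 1863, 1590.0 and 1865 CPM, a mean of 1580.5 ± 405 (SD, n = 4). R6/2 samples held 574, 561, 587 and 483 CPM, a mean of 551 ± 46.6 (SD, n = 4). The log2 fold change was -1.54 ± 0.28 (SE), or 2.91-fold lower, and the lowest NT sample was still well above all R6/2 samples. Within the samples with 1 set of counts it was -1.69 ± 0.31 and within those with 2 sets -1.35 ± 0.30 (SE, 2 against 2 in each). From the highest mean to the lowest, the order was NT striatum, NT cortex, R6/2 cortex and R6/2 striatum. NT striatum and NT cortex overlapped, and the other neighbours did not.

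Atp2b2 encodes PMCA2, a fast pump of neurons and hair cells. In the cortex, NT samples held 539, 346, 382 and 469.8 CPM and R6/2 samples 115, 168, 209 and 233 CPM. Every R6/2 sample was lower, with means of 434 ± 87.1 and 181 ± 52.0 CPM (SD, n = 4) and a log2 fold change of -1.25 ± 0.22 (SE). In the striatum, NT samples held 193, 239, 325 and 228 CPM and R6/2 samples 78.8, 106, 119.98 and 88.3 CPM. The groups again did not overlap, with means of 246 ± 56.0 and 98.3 ± 18.3 CPM (SD, n = 4) and a log2 fold change of -1.35 ± 0.24 (SE). That value was -1.76 ± 0.30 in samples of 1 set and -0.96 ± 0.20 in samples of 2 sets (SE). The order was NT cortex, NT striatum, R6/2 cortex and R6/2 striatum, and NT striatum and R6/2 cortex overlapped. NT and R6/2 cortex differed from the striatum of the same genotype by -0.82 ± 0.24 and -0.87 ± 0.25 on the log2 scale (striatum minus cortex, SE), without overlap in NT mice and with 1 R6/2 striatal sample inside the cortical range.

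Atp2b4 (ENSMUSG00000026463, chr1:133699457-133801041, minus strand) encodes PMCA4. Its cortical level was 95.9, 90.4, 71.2 and 64.5 CPM in NT samples and 38.2, 36.1, 33.2 and 38.4 CPM in R6/2 samples. These do not overlap, and their means were 80.5 ± 15.0 and 36.5 ± 2.41 CPM (SD, n = 4), a log2 fold change of -1.14 ± 0.23 (SE). Of the 5 genes, Atp2b4 had the largest difference between regions, with 5.34-fold fewer normalised reads in the striatum than in the cortex of NT mice (log2 -2.42 ± 0.30, SE) and 3.97-fold fewer in R6/2 mice (log2 -1.99 ± 0.32, SE). The striatum therefore yielded 39 reads in all NT samples and 27 in all R6/2 samples, too few to pass the filter on low counts. Its values there were 19.7, 7.30, 18.1 and 20.3 CPM in NT and 7.58, 11.9, 9.56 and 4.91 CPM in R6/2 samples, which overlap. Without the filter, the log2 fold change was -0.74 ± 0.48, with all 16 samples in 1 fit -0.72 ± 0.36 and in samples of 2 sets -0.24 ± 0.55 (SE).

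Atp2a2 (ENSMUSG00000029467, chr5:122453513-122502225, minus strand) differed mainly in the striatum. There, NT samples held 112, 101, 105 and 147 CPM and R6/2 samples 45.5, 59.5, 51.0 and 46.6 CPM. No R6/2 sample reached the NT range, the means were 116 ± 20.9 and 50.6 ± 6.38 CPM (SD, n = 4), and the log2 fold change was -1.19 ± 0.21 (SE). It was -1.39 ± 0.33 in samples of 1 set and -0.97 ± 0.21 in samples of 2 sets (SE). In the cortex, NT samples held 113, 113, 86.5 and 133 CPM and R6/2 samples 97.4, 82.8, 76.6 and 101 CPM. These overlap, with a log2 fold change of -0.35 ± 0.20 (SE). NT cortex and NT striatum were level, at a log2 difference of 0.01 ± 0.19 (SE), whereas every R6/2 striatal sample was below every R6/2 cortical sample.

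Atp2b3 (ENSMUSG00000031376, chrX:73503086-73571005, plus strand) encodes PMCA3, and had 191 reads over the 16 samples, with 2 to 24 per sample. In the cortex, its values were 33.8, 22.6, 10.2 and 18.1 CPM in NT and 24.8, 38.2, 24.6 and 26.4 CPM in R6/2 samples. In the striatum, they were 18.4, 19.5, 19.7 and 15.2 CPM in NT and 18.2, 19.5, 12.7 and 9.81 CPM in R6/2 samples. Genotypes overlapped in both regions, and the log2 fold changes were 0.36 ± 0.34 in the cortex and -0.28 ± 0.28 in the striatum (SE).

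**Figure D1:**
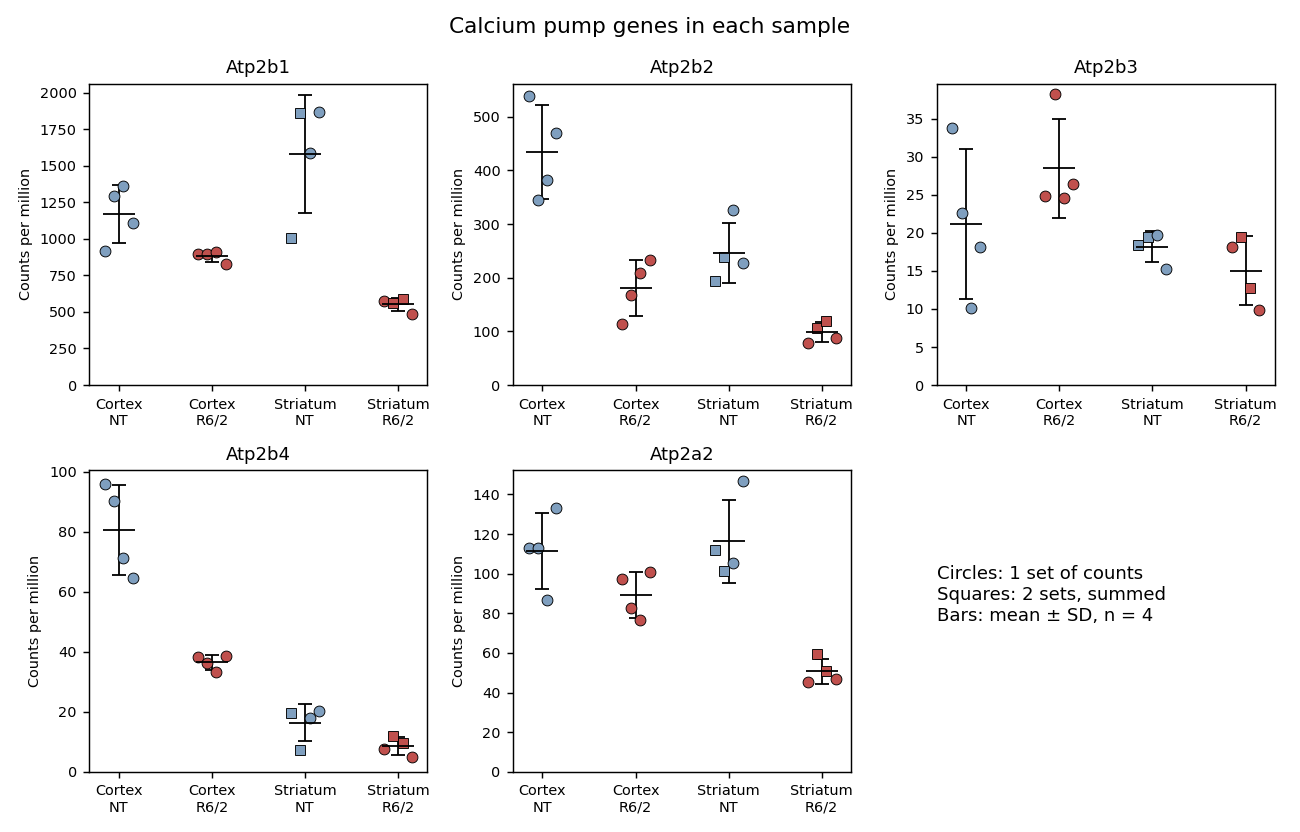
Level of each pump gene in CPM, by region and genotype. Circles are samples with 1 set of counts and squares samples with 2 sets, and bars are the mean and SD of 4 samples; R6/2 samples of Atp2b2 lie below all NT samples in both regions, while those of Atp2b3 overlap them.

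Against the background of all genes, 2 of 5 members (Atp2b2 and Atp2b4) were called lower in the R6/2 cortex by edgeR's quasi-likelihood test at a Benjamini-Hochberg adjusted p under 0.05, where 2.77% of 6128 genes were called lower. In the striatum, 2 of the 4 members that passed the filter (Atp2b2 and Atp2a2) were called lower, where 0.507% of 7694 genes were. With the number of sets of counts as a term in the striatal fit, Atp2b1 was called as well, and 3.82% of all genes were called lower. Atp2b1 was also called in the striatum with DESeq2, without a filter, with the filter of 20 reads, with all 16 samples in 1 fit, without NT sample 1 and in samples of 1 set. Every R6/2 sample was below every NT sample for 3 of 5 members in the cortex, where 6.54% of genes had this pattern, and for 3 of 5 in the striatum, where 4.29% did. The cortical calls of Atp2b2 and Atp2b4 were made without each sample in turn, and that of Atp2b4 was not made with all 16 samples in 1 fit. In the striatum, Atp2b2 was called without NT sample 1 but not without any 1 of the other 7 samples, without ISM reads or in samples of 2 sets, and Atp2a2 was not called with any 1 sample left out, without a filter, with the first set of counts only or in samples of 1 or of 2 sets. Since the genes were chosen on this contrast, nothing is read from these counts.

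**Figure D2:**
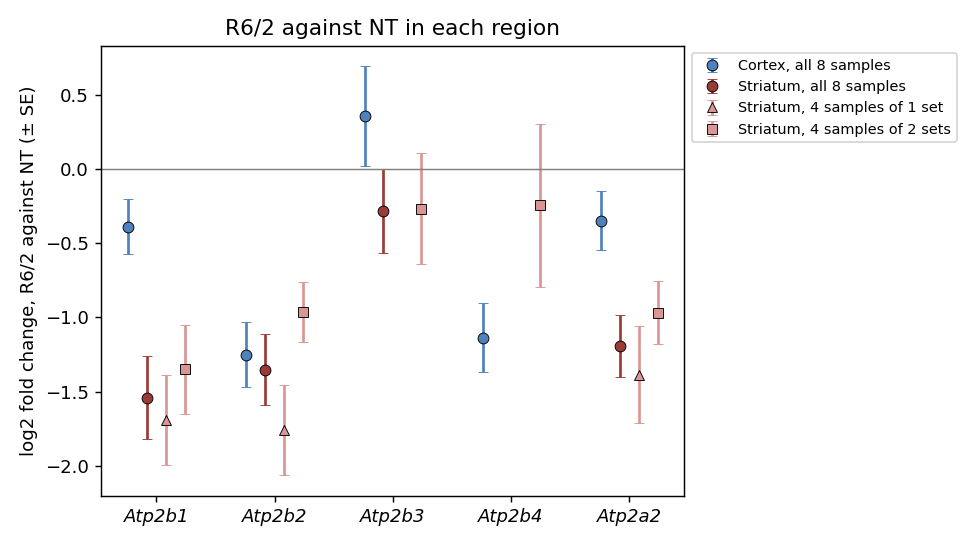
log2 fold change of each pump gene, R6/2 against NT, with its SE, from the fit to each region and, for the striatum, within samples of 1 and of 2 sets of counts. Atp2b1, Atp2b2 and Atp2a2 are below 0 in both batches of striatal samples, and a symbol is missing where the gene did not pass the filter on low counts.

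Reads were then compared by the isoform to which they had been assigned. Known isoforms match an annotated transcript, NIC isoforms combine annotated splice sites in a way that is not annotated, and NNC isoforms use a splice site that is not annotated. Incomplete splice matches (ISM) hold only part of the exons of an annotated transcript, and a prefix ISM holds its 5′ part. Known isoforms took 76.5% of gene reads over all genes, but 0 of 9619 reads of Atp2b1, 0 of 262 of Atp2b4, 6 of 191 of Atp2b3, 16 of 813 of Atp2a2 and 597 of 2016 of Atp2b2. Reads of known, NIC and NNC isoforms, called complete here, made up 72.6% of Atp2b1 and 37.2% of Atp2b2 reads. The word means only that a read is not an ISM, and does not mean that it spans the whole transcript. Of 6985 complete Atp2b1 reads, 5132 were of a 6-exon NNC isoform of 1605 nt. The longest annotated Atp2b1 transcript has 7130 nt. Only 22 complete reads of Atp2b4, 33 of Atp2a2 and 47 of Atp2b3 were counted, and no isoform shares are given for these genes.

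Over all 16 samples, reads of 6 exons were the commonest kind for each of the 4 PMCA genes, although the annotated transcripts with most exons have 21 to 24. This measure was chosen after its values were seen. The 6-exon form was found in 6383 of 9619 Atp2b1 reads (66.4%), 201 of 262 Atp2b4 reads (76.7%), 62 of 191 Atp2b3 reads (32.5%) and 440 of 2016 Atp2b2 reads (21.8%). Atp2a2 had no such peak, with 46 of 813 reads (5.66%), and its commonest reads had 1 exon. The 6-exon reads came mostly from 1 isoform per gene. It was an NNC isoform of 1605 nt for Atp2b1 (5132 reads), a prefix ISM of 3111 nt for Atp2b4 (196 reads), a prefix ISM of 1694 nt for Atp2b3 (61 reads) and the known Atp2b2-204 of 3463 nt for Atp2b2 (340 reads). Reads of 20 or more exons, with ISM reads counted, made up 18.1% of Atp2b2, 15.2% of Atp2b3 and 1.99% of Atp2b1 reads, and none of the 262 Atp2b4 reads. By group, these shares are given over the pooled reads of 4 samples, with no test. For Atp2b2, 20 exons was the commonest number in the R6/2 striatum. There, 10.0% of its reads had 6 exons and 33.1% had 20 or more. In the NT striatum these shares were 13.9% and 22.5%, and in the cortex 30.5% and 10.3% in NT and 30.4% and 11.5% in R6/2 mice. For Atp2b1, reads of 20 or more exons made up 0.117% in NT and 0.322% in R6/2 cortex, and 1.98% and 5.83% in the striatum. Single striatal samples ranged from 0.543% to 6.68% in NT and from 0.508% to 8.11% in R6/2 mice for Atp2b1. For Atp2b2 they ranged from 8.89% to 26.5% and from 17.3% to 39.8%. Genotypes thus overlapped in this share for both genes, and did so in the cortex as well. Positions of the isoforms without an annotation are not used here, so where the 6-exon reads of Atp2b1, Atp2b3 and Atp2b4 end in the gene is not given.

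**Figure D3:**
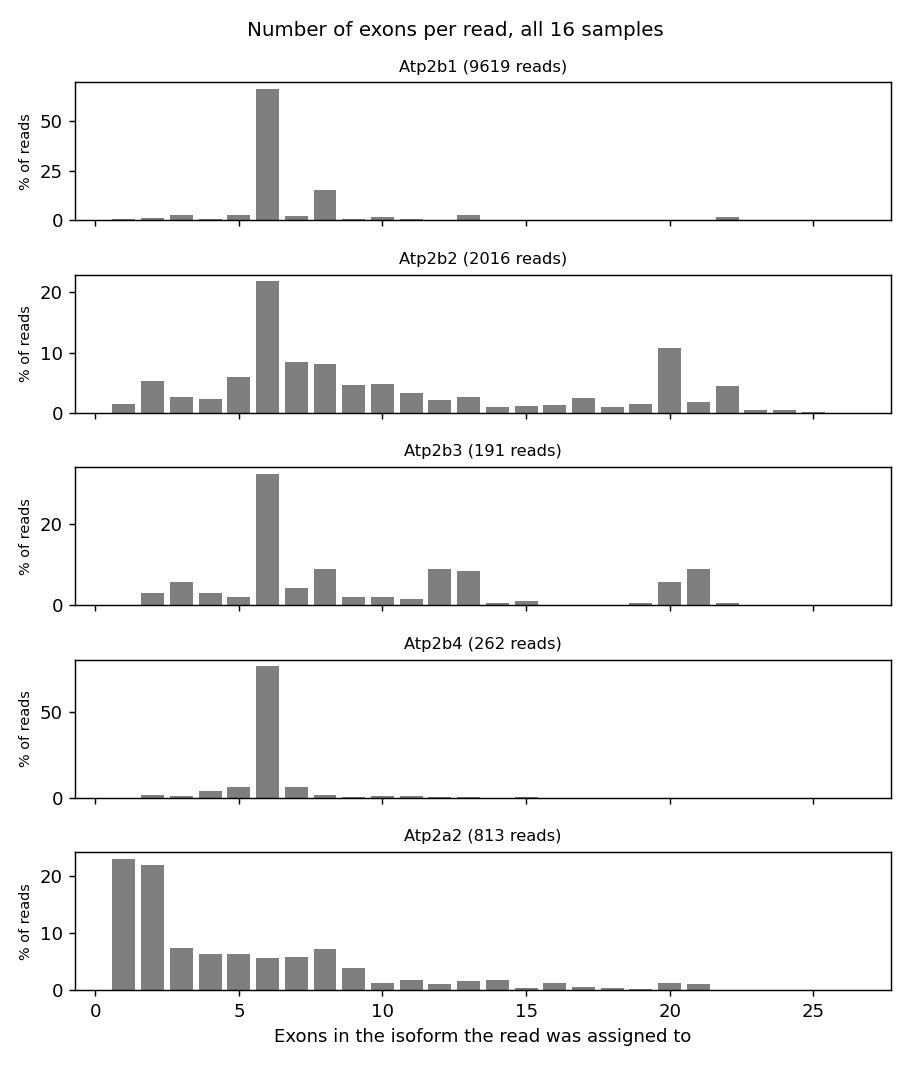
Share of each gene's reads, in percent, by the number of exons of the isoform the read was assigned to, over all 16 samples. The 4 PMCA genes have their highest bar at 6 exons, and Atp2a2 has its highest at 1 exon.

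For Atp2b1, 2 isoforms passed the rule for naming (at least 10 complete reads over a region and 5% of the gene's complete reads in a group). The 6-exon NNC isoform made up 77.7%, 83.6%, 83.8% and 84.3% of complete reads in NT cortex and 85.4%, 81.03%, 81.6% and 76.4% in R6/2 cortex. In the striatum it made up 61.997%, 70.9%, 74.2% and 74.4% in NT and 70.0%, 58.9%, 63.7% and 78.5% in R6/2 samples. Genotypes overlapped in both regions, while both striatal groups had lower means (70.4% and 67.8%) than both cortical groups (82.4% and 81.1%). Single samples overlapped between regions, with R6/2 striatum sample 4 (78.5%) above NT cortex sample 1 (77.7%) and R6/2 cortex sample 4 (76.4%). Striatal samples of 2 sets had 58.9% to 70.9%, and those of 1 set 70.0% to 78.5%. Over all Atp2b1 reads, ISM included, the difference in its mean share, R6/2 minus NT, was -7.31 percentage points in the cortex and -7.07 in the striatum, against -1.27 and -2.61 over complete reads. The 8-exon NIC isoform of 1806 nt took a mean share of 13.3% ± 3.31 in NT and 13.2% ± 2.71 in R6/2 cortex, and of 17.7% ± 1.62 and 17.4% ± 1.496 in striatal samples (SD, n = 4). Its shares also overlapped between genotypes.

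The share of prefix ISM reads among all Atp2b1 reads was likewise chosen after its values were seen. It was 18.7%, 21.9%, 20.2% and 23.3% of Atp2b1 reads in NT cortex and 31.3%, 28.0%, 29.1% and 29.7% in R6/2 cortex. In the striatum it was 13.1%, 10.1%, 8.37% and 6.79% in NT and 15.3%, 16.2%, 16.3% and 16.2% in R6/2 samples. Every R6/2 sample was above every NT sample in both regions, with mean shares of 29.5% ± 1.35 against 21.0% ± 1.99 in the cortex and 16.01% ± 0.471 against 9.59% ± 2.70 in the striatum (SD, n = 4). This pattern was found in 2.19% of 960 genes in the cortex and 0.895% of 1006 genes in the striatum, counting genes with at least 20 reads in every sample and 10 prefix reads in the region. A 6-exon prefix ISM of 2183 nt held 894 Atp2b1 reads over all samples. Prefix ISM reads of 6 exons had mean shares of 13.9% in NT and 20.8% in R6/2 cortex. In the striatum these were 3.74% and 6.74%. The share of 6-exon reads of any class overlapped between genotypes. Its means were 73.6% in NT and 73.2% in R6/2 cortex, and 62.5% and 58.9% in the striatum. In CPM, the complete Atp2b1 reads went from 811 ± 145 in NT to 541 ± 23.2 in R6/2 cortex, while prefix reads were 247 ± 50.9 and 260.2 ± 15.98 (SD, n = 4). In the striatum, complete reads were at 1238 ± 346 and 390.2 ± 40.3 CPM and prefix reads at 145 ± 29.0 and 88.2 ± 7.20 CPM. Complete and prefix reads were thus both lower in every R6/2 striatal sample than in every NT one, while cortical prefix reads overlapped between genotypes. Over all genes, the prefix share overlapped between genotypes, at 8.64% to 10.3% in NT and 9.41% to 10.9% in R6/2 cortex and at 4.88% to 8.28% and 5.21% to 7.51% in the striatum.

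**Figure D4:**
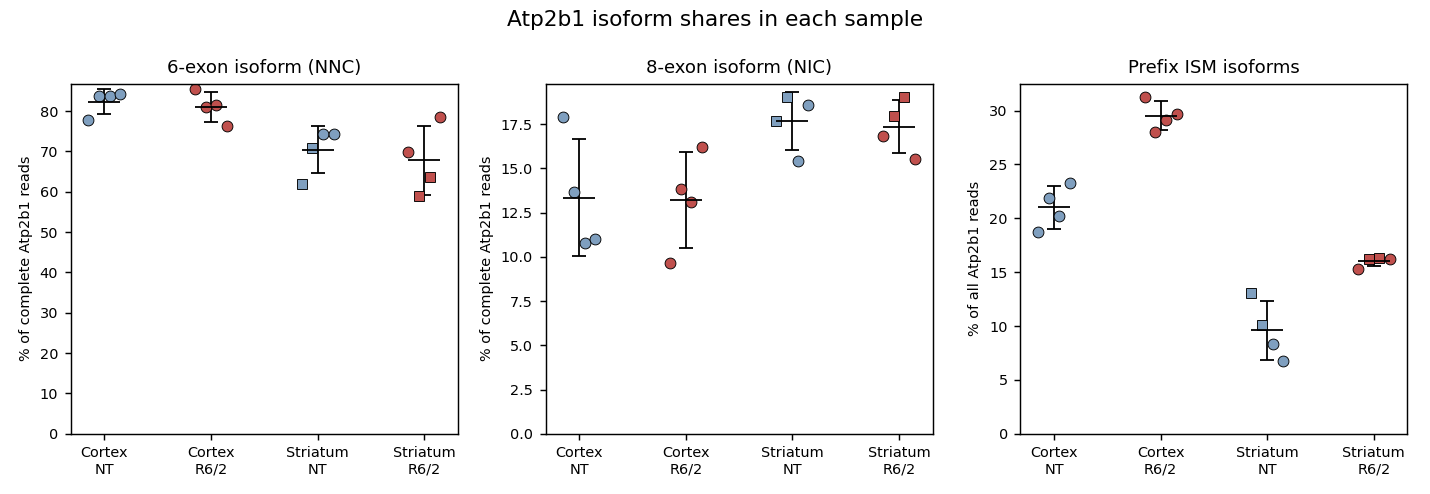
Share of the 6-exon NNC and the 8-exon NIC isoform among complete Atp2b1 reads, and of prefix ISM isoforms among all Atp2b1 reads, in percent, by sample. Circles are samples with 1 set of counts, squares samples with 2 sets, and bars the mean and SD of 4 samples; only the prefix ISM share has all R6/2 samples above all NT samples in both regions.

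For Atp2b2, the read-through isoform Atp2b2-204 was the main complete isoform in the cortex and Atp2b2-201 in the striatum. Atp2b2-204 took 64.4%, 76.4%, 75.7% and 54.1% of complete reads in NT cortex and 42.9%, 74.1%, 64.6% and 71.7% in R6/2 cortex. In the striatum it took 12.2%, 28.6%, 27.3% and 37.5% in NT and 9.09%, 15.9%, 15.8% and 28.6% in R6/2 samples. All striatal samples were below all cortical samples, and genotypes overlapped in each region. Atp2b2-201 took a mean share of 14.8% ± 3.84 in NT and 25.5% ± 21.8 in R6/2 cortex, and of 37.7% ± 8.26 and 46.0% ± 9.40 in the striatum (SD, n = 4). Its wide spread in R6/2 cortex comes from sample 1, at 57.1% of 14 complete reads. Atp2b2-203, from the distal start, had 11 and 6 reads in NT and R6/2 cortex and 23 and 13 in the striatum. It made up 5.16% and 4.35% of the reads of the 3 known isoforms in the cortex and 14.9% and 14.3% in the striatum. Atp2b2-204 begins at the proximal start and took 163 of 202 (NT) and 101 of 132 (R6/2) proximal reads in the cortex. In the striatum it took 55 of 131 and 21 of 78. Beside Atp2b2-201 alone, Atp2b2-203 had 11 to 39 and 6 to 31 reads in the cortex and 23 to 76 and 13 to 57 in the striatum. The higher striatal share is therefore not read as more use of the distal start. A 21-exon NIC isoform of 4451 nt had 14 of its 17 reads in the NT striatum.

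**Figure D5:**
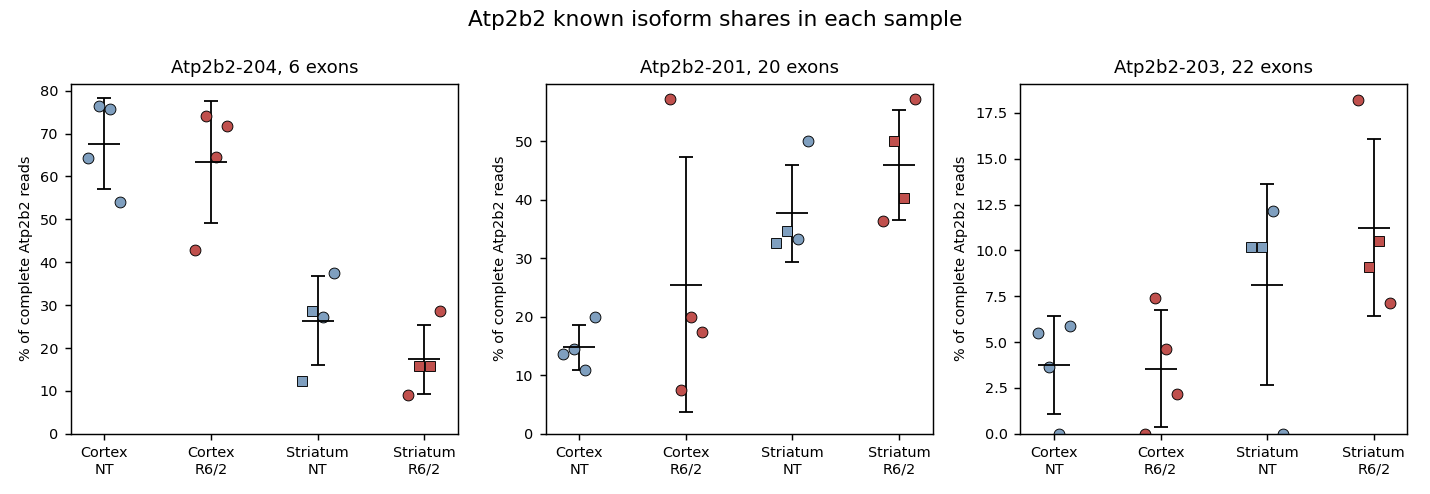
Share of 3 known isoforms among complete Atp2b2 reads, in percent, by sample. Circles are samples with 1 set of counts, squares samples with 2 sets, and bars the mean and SD of 4 samples; Atp2b2-204 is higher in every cortical than in every striatal sample.

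Inclusion of alternative exons was read from known isoforms only, almost all of them of Atp2b2. In such reads it is fixed by the annotated transcript to which each read was assigned. The 100 NIC and 52 NNC reads of Atp2b2 could carry other exons but were not placed, and ISM reads were left out. Use of the alternative exons over all reads was therefore not tested. The 3 site A exons (chr6:113797110-113797151, chr6:113802486-113802545 and chr6:113803747-113803779) were skipped by all 257 reads of known isoforms that span them. The 2 exons of 172 and 127 bases near the 3′ end (chr6:113755217-113755388 and chr6:113751564-113751690) were included in 1 of 257 reads. For the site C exon of Atp2b1 (chr10:99019278-99019431), no read of a known isoform spanned it, and the 1 such read of Atp2b3 that spanned chrX:73559864-73560017 skipped that exon.

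The isoform usage test (edgeR's diffSpliceDGE) covered Atp2b1 and Atp2b2 in each region and called neither. It called 0.359% of 3060 genes in the cortex and 0.0675% of 4443 genes in the striatum.

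Other calcium handling genes were taken from a list of 58, of which 26 could be tested in the cortex and 30 in the striatum with the same edgeR test. The list was made with earlier results of these data known. Its counts and medians are therefore descriptions, and nothing is read from them against the share of all genes. In the cortex 4 were called lower and none higher, beside 2.77% of all genes called lower. Itpr1, the inositol trisphosphate receptor that releases calcium from the stores filled by SERCA2, fell from 141 ± 12.1 to 70.8 ± 7.59 CPM (SD, n = 4), a log2 fold change of -0.99 ± 0.19 (SE) with an edgeR adjusted p of 0.004. Cacnb3, a voltage-gated channel subunit, had a log2 fold change of -0.88 ± 0.19 (edgeR adjusted p = 0.013), and Calb1, the buffer calbindin, of -0.73 ± 0.19 (edgeR adjusted p = 0.042). Slc24a4, a potassium-dependent sodium-calcium exchanger named here after its values were seen, had one of -1.27 ± 0.33 (edgeR adjusted p = 0.038). In the striatum Itpr1 was the 1 gene called lower and none was called higher, where 0.507% of all genes were called lower. It went from 231 ± 26.0 to 96.9 ± 15.1 CPM, with a log2 fold change of -1.27 ± 0.22 (edgeR adjusted p = 0.043). With the number of sets as a term, 4 of 30 were called lower (Itpr1, Cacna1e, Ryr3 and Cacnb3), where 3.82% of all genes were. The median log2 fold change of the tested list was -0.21 (cortex) and -0.30 (striatum), beside 0.02 and -0.01 over all genes tested. The calmodulin genes and other pump partners had 0 of 5 called in either region by edgeR, and so did the mitochondrial genes, with 0 of 4 (cortex) and 0 of 5 (striatum).

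Likeness of pattern was measured as Pearson's r of log2 CPM over the 16 samples among 7360 genes, and is a description that includes the differences between regions and genotypes. The genes most like Atp2b1 were Ppp1r9a (r = 0.93), Gadd45g (0.87) and Myt1l (0.86). Those most like Atp2b2 were Kalrn (0.91), Junb (0.90) and Grasp (0.89), and those most like Atp2b4 were Map9 (0.94), Vip (0.94) and Igfbp2 (0.93). Atp2a2 was most like Cnksr2 (0.86), Phlda3 (0.84) and Arpc2 (0.82), and Atp2b3 most like Flii (0.83), Cpne6 (0.80) and Pik3r1 (0.79). Among the members, r was highest between Atp2b1 and Atp2a2 (0.82) and lowest between Atp2b1 and Atp2b3 (0.08).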

How the data were processed

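PacBio Iso-seq reads were processed by the authors to circular consensus reads, mapped to mm10 with minimap2 2.17-r941 (from the submitters' processing notes), corrected with TranscriptClean and assigned to isoforms with TALON, and the values the authors deposited are unfiltered counts of reads per isoform. RNA had been treated with an exonuclease that degrades 5′-monophosphate RNA, and cDNA was amplified by PCR. Long transcripts are captured less often, and levels were not compared between genes.

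Gene counts were summed here over known, ISM, NIC and NNC isoforms. Reads of the genomic, antisense and intergenic classes were left out, among them 431 Atp2b1, 629 Atp2b2, 86 Atp2b3, 133 Atp2b4 and 143 Atp2a2 reads of the genomic class. Not scaled to library size, genomic reads of Atp2b2 numbered 112 in NT and 113 in R6/2 cortex, beside 652 and 381 counted reads. In the striatum they numbered 269 and 135, beside 684 and 299. For Atp2b4 they numbered 39 and 36 in the cortex, beside 120 and 76, and 29 and 29 in the striatum, beside 39 and 27. Fold changes with genomic reads included were not computed. R6/2 and NT samples were compared in each region with edgeR 4.0.16 (R 4.3.3; TMM, filterByExpr, quasi-likelihood test) and Benjamini-Hochberg adjustment over all genes tested. Isoform usage was tested with diffSpliceDGE over isoforms with at least 10 reads. CPM were computed with TMM over the 16 samples. Likeness used log2 CPM with a prior count of 2. P-values set a difference against the spread between these samples. Alternatives included DESeq2 1.42.0. The scripts were tested on simulated data. Python 3.11.15 was used for the rest.

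The members and lists were chosen with earlier results of these data known. Named are all members, isoforms with at least 10 complete reads over a region and 5% of complete reads in a group, up to 6 called calcium handling genes per region whose group with more reads averaged 20 or more, and the 3 genes most like each member. Exons are from GENCODE M21 (mm10).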

Additional observations from a re-analysis of the deposited data

Results flagged for a closer look

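In 8 of the 64 groups of 4 examined, 1 sample stood apart from the other 3, by a gap to its neighbour that was above Dixon's critical value as a share of the group's range, and chance flags about 1 in 20 groups. Atp2b1 was at 826.2 CPM in R6/2 cortex sample 4, against 893.7 to 907.4 CPM in the other samples of its group. Atp2b3 was at 38.2 CPM in R6/2 cortex sample 2, against 24.6 to 26.4 CPM. Atp2b4 was at 7.30 CPM in NT striatum sample 2, against 18.1 to 20.3 CPM, from 9 reads. The 6-exon NNC isoform of Atp2b1 took 77.7% of complete reads in NT cortex sample 1, against 83.6% to 84.3%. In NT striatum sample 4, Atp2b2-201 took 50% of complete Atp2b2 reads, against 32.7% to 34.7%, and Atp2b2-203 took 0%, against 10.2% to 12.1%. This sample had only 8 complete Atp2b2 reads, 4 of them of Atp2b2-201. The 21-exon NIC isoform of Atp2b2 took 1.75% in R6/2 striatum sample 3, which is 1 read of 57, and 0% in the other 3. The prefix ISM share of Atp2b1 was 15.3% in R6/2 striatum sample 1, against 16.2% to 16.3%.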

How the results depend on the processing

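The sign of each member's log2 fold change stayed as reported under the alternatives that gave a value, and for Atp2b4 in the striatum, which did not pass the filter there, it was -0.74 without the filter, -0.72 with all 16 samples in 1 fit and -0.24 in samples of 2 sets. For Atp2b1, Atp2b3 and Atp2b4 it moved by less than 1 SD of the samples in the regions fitted, as it did for Atp2b2 and Atp2a2 in the cortex. In the striatum, Atp2b2 went from -1.35 to -1.02 without ISM reads, to -1.76 in samples of 1 set of counts and to -0.96 in samples of 2 sets, and Atp2a2 went from -1.19 to -0.97 in samples of 2 sets. Without ISM reads, only Atp2b1 and Atp2b2 passed the filter in either region, and Atp2b3 gave no value with the filter of 20 reads in either region or, in the striatum, with the first set only and in samples of 1 set. Without each sample in turn, the share of Atp2b1 prefix ISM reads differed by 7.73 to 9.26 percentage points in the cortex and 5.48 to 7.59 in the striatum. The share of the 6-exon NNC isoform of Atp2b1, R6/2 minus NT, was -1.27 percentage points in the cortex and -2.61 in the striatum over complete reads, and -7.31 and -7.07 over all reads of the gene. Exon inclusion gave no value to vary, with 0 or 1 inclusion reads among the reads of known isoforms.

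Counts of called genes depended on the setting, and the cause was not tested. In the cortex, 198 genes became 95 without ISM reads and 47 with all 16 samples in 1 fit, and between 95 (without R6/2 sample 3) and 300 (without NT sample 1) with 1 sample left out. In the striatum, 39 became 124 with DESeq2, 140 without a filter, 13 without ISM reads, 145 with all 16 samples in 1 fit, 20 with the first set of counts only and 332 with the number of sets as a term, and 3 (without R6/2 sample 1 or 2) to 38 with 1 sample left out. Of the calcium handling list, the 4 genes called in the cortex became 2 without a filter, 0 without ISM reads (edgeR; 3 at an unadjusted p under 0.05) and 1 with all samples in 1 fit, and 1 to 4 with 1 sample left out. The 1 called in the striatum, Itpr1, became 2 with DESeq2, without a filter or with all samples in 1 fit, and 4 with the number of sets as a term. It became 0 without ISM reads, with the first set only (edgeR; 4 at an unadjusted p under 0.05 in both) and in samples of 2 sets (10 such), and 0 to 1 with 1 sample left out. Striatal Itpr1 was no longer called without any 1 sample other than NT 1, with edgeR adjusted p between 0.06 and 0.22. Cortical Cacnb3 was lost without NT 4, R6/2 2 or R6/2 3, and Calb1 without any 1 sample other than NT 1. For isoform usage, 11 genes in the cortex became 7 with known isoforms only and 28 with the F test, and 1 to 15 with 1 sample left out. The 3 in the striatum became 0 with known isoforms only or the first set only (edgeR; 74 and 107 at an unadjusted p under 0.05), 17 with the F test, 20 with the number of sets as a term and 0 to 6 with 1 sample left out.

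Sample numbers are shared by the groups. Deviations of same-numbered samples from their group means had correlations of -0.659 to 0.716 between NT and R6/2 striatum, which cannot be the same animal. Between cortex and striatum they were -0.249 to 0.310 in NT and -0.036 to 0.533 in R6/2 mice. The numbers were not taken to pair the samples, and these values do not settle whether same-numbered regions came from the same animal. With a replicate block in the striatum, 0 genes (edgeR; 634 at an unadjusted p under 0.05), 0 of the calcium handling list (9) and 0 for isoform usage (127) were called.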
